A study of Mus musculus with 8 samples.

Results

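The erythroid and embryonic globin genes measured here were Hba-a1, Hba-x, Hbb-y, Hbb-bh1, Alas2, Slc4a1 and Epb42. All probe sets that the platform annotation gives to exactly 1 of these 7 symbols were taken, which made 14 of the 45037 probe sets tested. The samples were total RNA of mouse corneas on 8 one-colour Affymetrix arrays, 4 from mice that overexpress TGF-beta (TGFB) and 4 from their wildtype littermates. All RNA was extracted with TRizol, as the titles say. The labels say nothing of the TGF-beta isoform, of the promoter or cell type that drives it, or of strain, age and number of animals per array. The spread between arrays, on which every p-value rests, may therefore be technical in part. Numbers from 1 to 4 name the arrays of a group in record order and pair none of them.

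Hemoglobin, the oxygen carrier of red blood cells, joins alpha-like and beta-like globin chains, each holding a heme group. In the mouse the embryonic chains (the zeta globin Hba-x and the beta-like globins Hbb-y and Hbb-bh1) are made first, mainly in primitive red cells that arise in the yolk sac, and the adult chains (Hba-a1 and its near copy Hba-a2, and the adult beta globins) take over later. Alas2 makes the first step of heme synthesis in red cell precursors, Slc4a1 is the anion exchanger of the red cell membrane, and Epb42 encodes a protein that ties this exchanger to the membrane skeleton. The transparent cornea normally holds no blood vessels, while the limbus around it is vascular.

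Signals are in the linear units of the deposited table, and comparisons used log2(signal + 16), so a difference understates the change of a dim probe set. Between 34.9% and 40.9% of probe sets on an array lay below a signal of 16, the offset, which serves here as a line for dim values and not as a detection call. Median signals ran from 26.3 to 34.4. The corneal keratin Krt12 had signals of 289 to 5766 and the stromal proteoglycan Kera of 2073 to 8110, so the defining markers of the labelled tissue were present, with Krt12 lowest in TGFB 1 and in wildtype 4 (562). Some arrays stood apart. A list of 7 cornified epidermis genes had a mean of 12.22 in TGFB 1, 12.59 in TGFB 2 and 11.45 in wildtype 2, against 6.24 to 7.20 on the other 5 arrays. A high Gapdh 3'/5' ratio is a sign of decayed RNA, and this ratio was 6.41 in wildtype 4 and 2.19 to 4.31 elsewhere. The mean of 12 fetal and imprinted growth genes was 8.80 in wildtype 1 and 9.57 to 9.84 elsewhere. Lens crystallin means ran from 4.71 in TGFB 1 to 11.70 in wildtype 3. All 12 measured lens crystallins had the lower mean in TGFB corneas, none at an unadjusted p under 0.05. All 8 pigment cell genes were lower in TGFB corneas, 6 of them at an unadjusted p under 0.05 and none past the adjusted threshold. Of 11 measured cornea genes 9 had the lower mean in TGFB corneas and 2 the higher, with a median difference of -0.34. At an unadjusted p under 0.05 were 1 higher and 1 lower, and none passed the adjusted threshold. The part of corneal, lens and pigment cells in the values of the members was not tested.

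No member passed the test between TGFB and wildtype corneas. With limma and Benjamini-Hochberg adjustment over all 45037 probe sets, 0 of 14 members were called at adjusted p under 0.05, where the background over all probe sets was 0%. The adjusted p of the members ran from 0.840 to 0.998. At an unadjusted p under 0.05 there was 1 member, against 5.86% of all probe sets. The groups did not overlap for 0 of 14 members and for 3.28% of all probe sets. Of the members, 8 had the higher mean in TGFB corneas and 6 the lower, or 5 and 9 with median centring, and 51.6% of all probe sets had the higher mean in TGFB corneas. The median difference was 0.021 over the members and 0.0090 over all probe sets. The intervals of the brightest members were wide. A call missed here does not show equal levels.

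**Figure D1:**
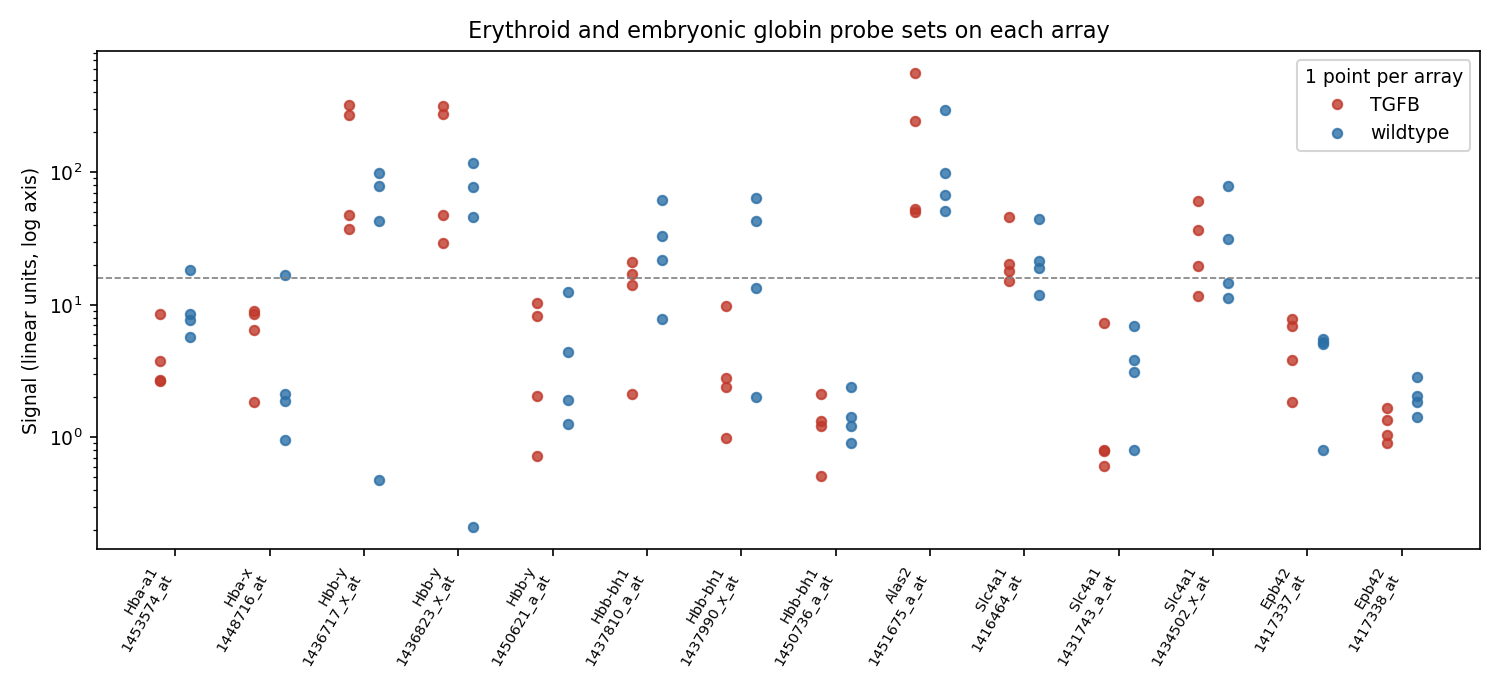
Signal of the 14 member probe sets on each array (linear units on a log axis), with TGFB arrays in red and wildtype arrays in blue. The dashed line marks a signal of 16, and only Alas2 and 2 of the 3 Hbb-y probe sets reached 100 on any array.

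Most members were dim. Of the 14 probe sets, 5 stayed below a signal of 16 on every array and 7 never reached 32. Those 7 were the Hba-a1 and Hba-x probe sets, both Epb42 probe sets, and 1 probe set each of Hbb-y, Hbb-bh1 and Slc4a1. Their signals ran from 0.515 to 18.2, their differences from -0.34 to 0.11, and their adjusted p from 0.879 to 0.993. Only Alas2 lay above 16 on all 8 arrays.

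Promoter windows from RefSeq were matched for 5 of the 7 genes (Hba-a1, Hba-x, Hbb-y, Alas2 and Epb42). The 250 bases before the gene start are shown for Alas2 and Hbb-y, the brightest members, and for the adult globin Hba-a1. All 5 windows carry a match to the motif of GATA factors, the DNA-binding proteins that switch on erythroid genes. Capitals mark matches to that motif (AGATAA or TGATAA, on either strand), to CCAAT on either strand, and to CCNCNCCC on either strand, a C-rich pattern. Runs of CACCC outside this pattern were not searched and are not marked. All are from build GRCm38.p6, read 5′ to 3′ on the strand of the gene.
Alas2 (chrX:150547167-150547416, plus strand): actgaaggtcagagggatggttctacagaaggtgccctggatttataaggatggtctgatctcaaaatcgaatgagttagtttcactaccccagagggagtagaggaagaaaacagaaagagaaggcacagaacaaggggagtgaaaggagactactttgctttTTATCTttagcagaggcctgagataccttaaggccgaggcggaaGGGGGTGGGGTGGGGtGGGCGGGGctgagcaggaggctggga
Hbb-y (chr7:103853208-103853457, minus strand): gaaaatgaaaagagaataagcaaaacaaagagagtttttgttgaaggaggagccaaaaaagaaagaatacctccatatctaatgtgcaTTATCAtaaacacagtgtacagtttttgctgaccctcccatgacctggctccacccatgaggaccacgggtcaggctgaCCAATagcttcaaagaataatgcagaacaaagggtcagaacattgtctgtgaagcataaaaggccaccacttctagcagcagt
Hba-a1 (chr11:32283422-32283671, plus strand): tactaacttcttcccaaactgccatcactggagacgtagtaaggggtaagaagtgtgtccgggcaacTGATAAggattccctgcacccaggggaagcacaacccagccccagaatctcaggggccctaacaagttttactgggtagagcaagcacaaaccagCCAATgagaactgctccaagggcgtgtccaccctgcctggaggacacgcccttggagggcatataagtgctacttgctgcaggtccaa
Each of these 3 windows held 1 match to the GATA motif, and so did those of Hba-x and Epb42, while 16.6% of 32817 promoter windows of this length held one. CCAAT was found in the windows of Hba-a1 and Hbb-y and in 33.8% of all windows. CCNCNCCC was found 4 times in the window of Alas2, where 3 of the matches overlap, once in that of Hba-x, and in 45.9% of all windows. No match of one motif overlapped a match of another. A match is a run of letters and not a measured binding site.

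Adult alpha globin had 1 probe set that belongs to Hba-a1 alone, and it was dim. Its signals were 2.71, 3.79, 2.66 and 8.47 in TGFB 1 to TGFB 4 and 8.57, 18.2, 7.64 and 5.69 in wildtype 1 to wildtype 4. The wildtype arrays were mostly higher, with TGFB 4 inside their range. The log2 difference was -0.34 (SE 0.18, limma adjusted p = 0.879), with means of 4.34 ± 0.19 in TGFB and 4.68 ± 0.29 in wildtype corneas (SD, n = 4 each). Without wildtype 2, the highest array, the difference was -0.20, and without TGFB 1, TGFB 2 and wildtype 2 it was -0.12.

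Adult globin transcripts themselves were abundant, on probe sets that Hba-a1 shares with Hba-a2 and that are therefore not members. The shared probe set 1452757_s_at had signals of 5544, 4913, 8054 and 8192 in the TGFB group and of 6471, 5202, 8213 and 8661 in the wildtype group. Across the 3 shared alpha globin probe sets the signals ran from 3608 to 9625, above 98.8% of the probe sets of an array or more. The adult beta globin probe set shared by 4 genes ran from 4881 to 10130. On all 4 shared probe sets TGFB 1, TGFB 2 and wildtype 2 had the 3 lowest signals, and these were the arrays with high cornified epidermis genes. The part of that tissue in the globin level was not tested. The 3 alpha globin differences ran from -0.14 to -0.069 and the beta globin difference was -0.14 (SE 0.23), with limma adjusted p from 0.958 to 0.989. All 4 shared probe sets lay near the top of the signals of every array. Whether signals that high still follow the amount of RNA was not tested, so these small differences do not show equal adult globin RNA. In bulk RNA the number of red cells and the globin RNA per cell cannot be told apart.

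The embryonic beta-like globin Hbb-y had the largest differences among the members. Probe set 1436717_x_at had signals of 47.6, 37.3, 320.0 and 270.2 in TGFB 1 to TGFB 4 and of 0.476, 42.6, 99.1 and 79.1 in wildtype 1 to wildtype 4. TGFB 3 and TGFB 4 were the highest of all arrays, TGFB 1 and TGFB 2 lay among the wildtype arrays, and wildtype 1 was near 0. The means were 7.07 ± 1.40 in TGFB and 5.83 ± 1.26 in wildtype corneas. The log2 difference was 1.24 (SE 0.77, 95% interval -0.50 to 2.97, limma adjusted p = 0.899).

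The second Hbb-y probe set, 1436823_x_at, gave nearly the same picture. Its signals were 47.6, 29.1, 316.0 and 274.2 in TGFB arrays and 0.212, 45.6, 116.5 and 77.3 in wildtype arrays. The log2 difference was 1.12 (SE 0.81, 95% interval -0.70 to 2.95, adjusted p = 0.911). The third, 1450621_a_at, was dim on every array (0.724 to 12.5) and its difference was 0.025 (SE 0.22, adjusted p = 0.993), so the probe sets of this gene disagree. The ending x_at is the platform's mark for probes that can also match other transcripts, and the globins are close relatives. Whether another globin reaches the 2 bright probe sets was not tested. The adult beta globin probe set 1427866_x_at, of Hbb-b2, also had its highest signals in TGFB 3 (695) and TGFB 4 (412), but had 201.8 in wildtype 1, where both Hbb-y probe sets were near 0. The highest of the remaining arrays was wildtype 4 with 118.9, and its difference was 0.69 (SE 0.86, adjusted p = 0.938). The other Hbb-b2 probe set, 1427865_at, went the other way (-0.32, SE 0.15, adjusted p = 0.864), with signals of 17.8 in TGFB 4, the lowest array, to 34.9 in wildtype 4.

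Leaving out wildtype 1 lowered the Hbb-y differences most among single arrays. Without it the difference was 0.64 (SE 0.69, adjusted p = 1.00) for 1436717_x_at and 0.50 (SE 0.73, adjusted p = 1.00) for 1436823_x_at. The same array had the lowest mean of fetal and imprinted growth genes. There the growth regulator Hmga2 had a signal of 29.1 in wildtype 1 and 136.9 to 306.2 elsewhere, and the RNA-binding protein Igf2bp1 had 17.9 in wildtype 1 and 25.5 to 492.7 elsewhere. Igf2, the fetal growth factor, was bright on every array, from 5933 in wildtype 1 to 8148 in wildtype 4. Hmga2 and Igf2bp1 were chosen after their values were known, and the Igf2bp1 probe set (1459825_x_at) also has the ending x_at. Wildtype 1 also had the lowest median signal (26.3) and the largest share of probe sets below 16 (40.9%). It had the highest list means of skeletal muscle (11.50), pigment cell (11.55) and cornea genes (11.65) as well. The part of these features of wildtype 1 in the Hbb-y result was not tested, and the labels give no age for any array.

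The embryonic globin Hbb-bh1, which lies close to Hbb-y on chromosome 7, ran the other way. Probe set 1437990_x_at had signals of 2.40, 0.982, 9.74 and 2.80 in TGFB arrays and of 13.3, 43.1, 64.1 and 2.00 in wildtype arrays. Wildtype 1, wildtype 2 and wildtype 3 were above every TGFB array, and wildtype 4 was among them. The log2 difference was -1.01 (SE 0.42, unadjusted p = 0.0396, limma adjusted p = 0.840), the smallest p of any member. Probe set 1437810_a_at had signals of 17.1, 2.13, 14.0 and 21.0 in TGFB arrays and of 22.0, 32.8, 61.4 and 7.84 in wildtype arrays. Again wildtype 4 alone of its group fell among the TGFB arrays. Wildtype 4 also had the highest Gapdh 3'/5' ratio (6.41), and the part of RNA decay in these values was not tested. The difference was -0.59 (SE 0.36, adjusted p = 0.898). Without wildtype 3 the 2 differences were -0.67 and -0.31, and without wildtype 4 they were -1.39 and -0.87. Wildtype 3, the highest array for both, also had the highest lens crystallin mean. The third probe set, 1450736_a_at, never passed 2.39 and had a difference of -0.016 (SE 0.12).

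The brighter probe sets of Hbb-y and Hbb-bh1 differed in the order of the arrays. Wildtype 3 was the highest array for both brighter Hbb-bh1 probe sets and the third highest for both brighter Hbb-y probe sets. TGFB 3 led these Hbb-y probe sets, and wildtype 1 was lowest there but stood at rank 3 in both brighter Hbb-bh1 probe sets. The dim Hbb-y probe set 1450621_a_at, in contrast, was highest in wildtype 3 (12.5), as was every Hbb-bh1 probe set. The zeta globin Hba-x was dim, with signals of 8.92, 1.86, 8.50 and 6.43 in TGFB arrays and of 0.951, 1.87, 2.13 and 16.7 in wildtype arrays. Its single value above 16 was in wildtype 4, and its difference was 0.11 (SE 0.23, adjusted p = 0.967).

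**Figure D2:**
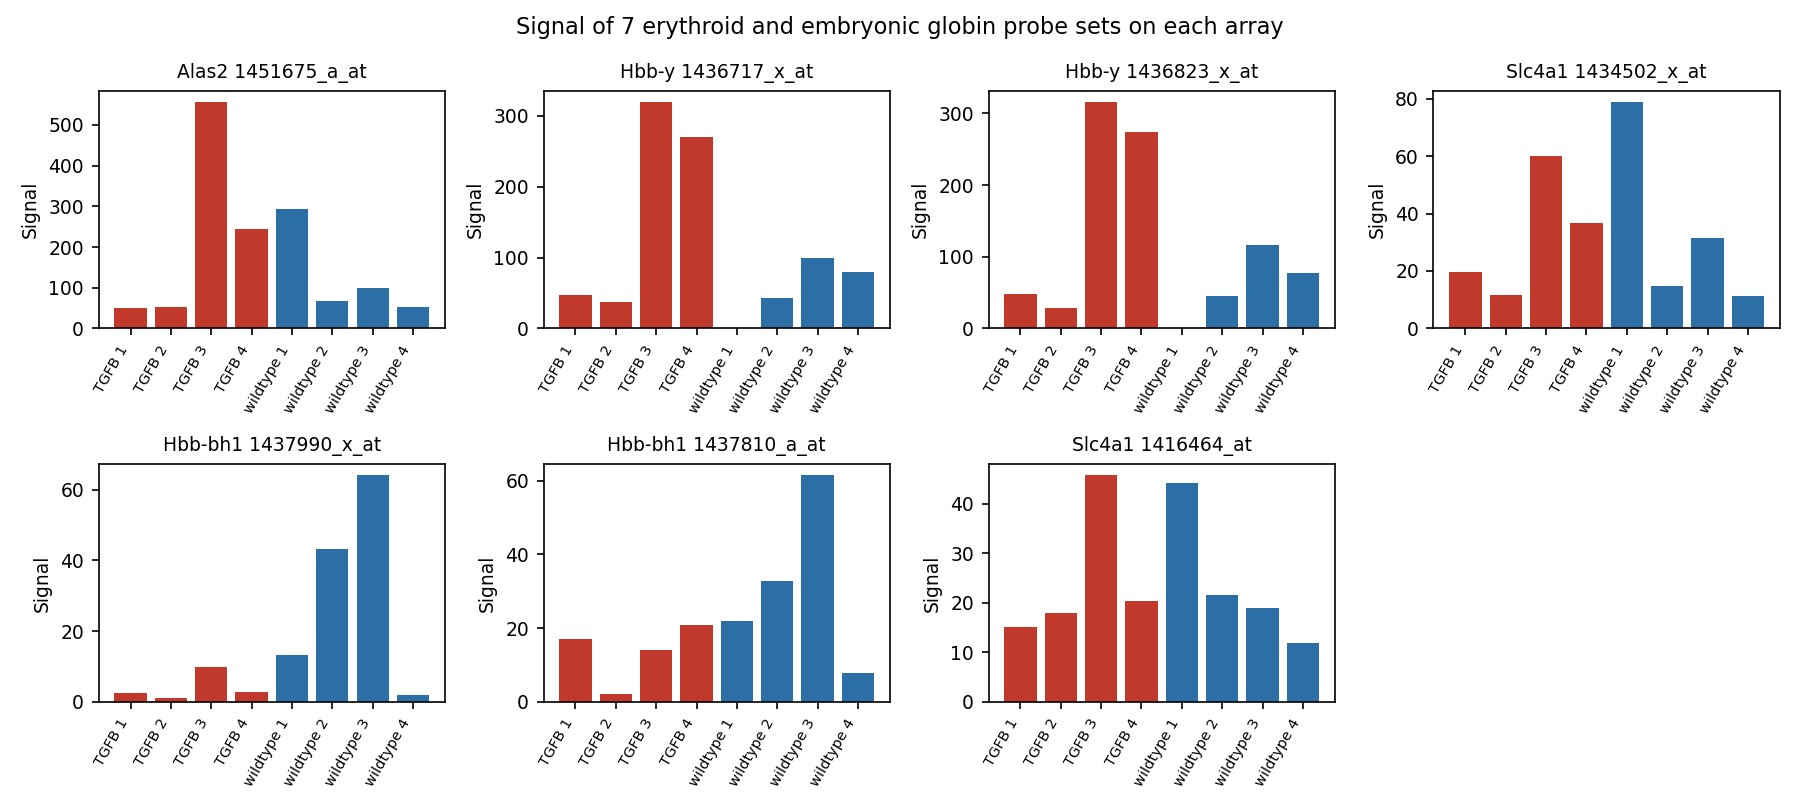
Signal (linear units, bars from 0) of the 7 probe sets that reached 32, on each array, with TGFB arrays in red and wildtype arrays in blue. Alas2 and Slc4a1 were highest in TGFB 3 and wildtype 1, Hbb-y in TGFB 3 and TGFB 4, and Hbb-bh1 in wildtype 3.

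Alas2, the enzyme of the first step of erythroid heme synthesis, varied widely between arrays. Its signals were 50.0, 52.5, 557 and 243.9 in TGFB 1 to TGFB 4 and 293.4, 66.8, 98.3 and 51.4 in wildtype 1 to wildtype 4. TGFB 3, wildtype 1 and TGFB 4 were high and the other 5 arrays lay between 50.0 and 98.3, so the spread ran within both groups. The means were 7.33 ± 1.53 in TGFB and 6.89 ± 0.97 in wildtype corneas. The log2 difference was 0.44 (SE 0.74, 95% interval -1.22 to 2.11, limma adjusted p = 0.958). Without TGFB 3 it was -0.17 (SE 0.63, adjusted p = 0.991), and without wildtype 1 it was 0.90 (SE 0.73, adjusted p = 1.00). The Hbb-b2 probe set 1427866_x_at had the same 3 highest arrays as Alas2, in the order TGFB 3, TGFB 4 and wildtype 1.

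The anion exchanger Slc4a1 was low, with TGFB 3 and wildtype 1 its 2 highest arrays on both brighter probe sets, as for Alas2. Probe set 1434502_x_at had signals of 19.5, 11.6, 60.1 and 36.6 in TGFB arrays and of 78.9, 14.7, 31.4 and 11.2 in wildtype arrays. Wildtype 1, TGFB 3 and TGFB 4 were its 3 highest arrays, as they were for Alas2. Probe set 1416464_at had signals of 15.1, 17.9, 45.7 and 20.3 against 44.1, 21.6, 18.96 and 11.9, with TGFB 3 and wildtype 1 again the highest. The differences were 0.017 (SE 0.43, adjusted p = 0.998) and 0.025 (SE 0.28, adjusted p = 0.995). Both signs turned under median centring, to -0.013 and -0.0043. The third Slc4a1 probe set, 1431743_a_at, ran from 0.610 to 7.28, with a difference of -0.11 (SE 0.16). Epb42 was near the floor of the array. Its probe set 1417337_at ran from 0.796 to 7.76 and 1417338_at from 0.905 to 2.85, and their differences were 0.062 (SE 0.15) and -0.065 (SE 0.11).

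**Figure D3:**
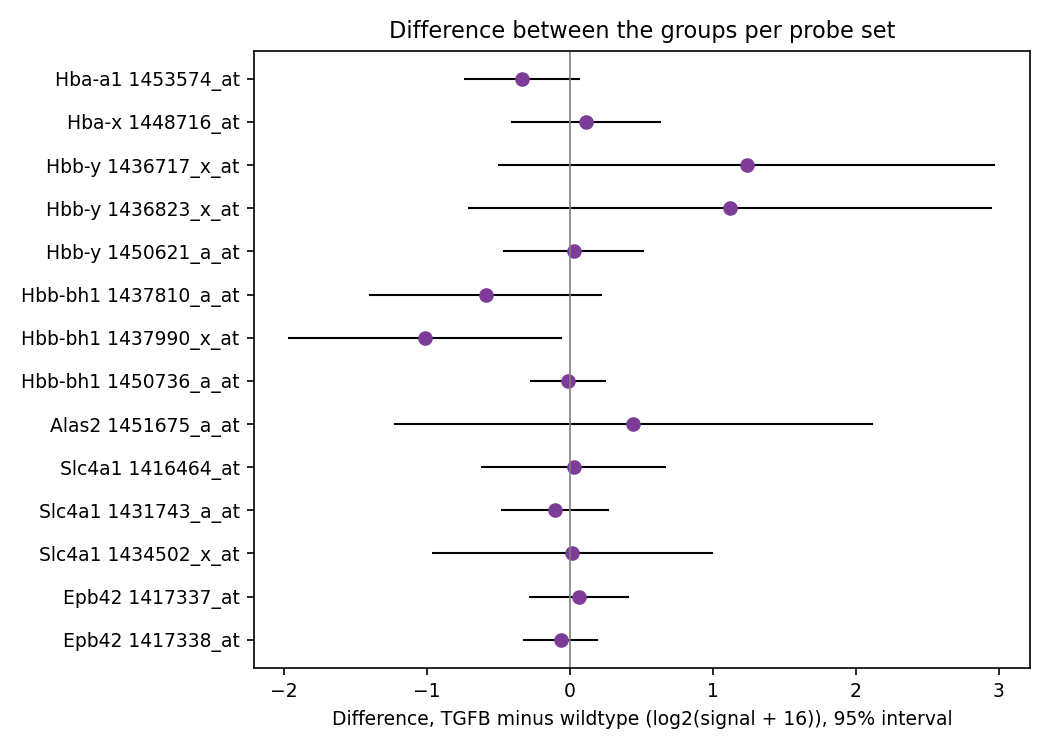
Difference between TGFB and wildtype corneas for each member (points, log2(signal + 16)) with its 95% interval from limma (lines). Every interval holds 0 except that of Hbb-bh1 1437990_x_at, which did not pass after adjustment, and the intervals of Alas2 and of 2 Hbb-y probe sets are the widest.

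The other genes of the red cell program were taken from lists, with 1 probe set per gene, the brightest over all arrays. In no list did a gene pass limma over all probe sets, 0 of 45037 in the background. Over all 18193 genes the median difference was -0.014 and 47.4% had the higher mean in TGFB corneas. At an unadjusted p under 0.05 stood 7.23% of them.

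Of 10 measured heme synthesis genes 5 were higher and 5 lower in TGFB corneas, with a median difference of -0.037, and 1 had an unadjusted p under 0.05. That gene was Alad, which makes the step after Alas2, with signals of 680, 686, 680 and 766 in TGFB arrays and 1639, 989, 1678 and 665 in wildtype arrays. Wildtype 1, wildtype 2 and wildtype 3 were above all TGFB arrays, and wildtype 4 was the lowest of all. The difference was -0.71 (SE 0.28, limma adjusted p = 0.837). Fech, which puts iron into heme as the last step, had signals of 540, 518, 843 and 600 against 826, 507, 597 and 546. Its 3 highest arrays were those of Alas2, and its difference was 0.012 (SE 0.21, adjusted p = 0.996). Urod, a middle step, had a difference of -0.35 (SE 0.17, adjusted p = 0.859), and Tspo, a mitochondrial membrane protein that binds porphyrins, one of -0.082 (SE 0.25). Unlike Alas2, these genes are active in many kinds of cell.

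Red cell membrane and skeleton genes gave 10 higher and 12 lower of 22 measured, with a median difference of -0.039, and 2 had an unadjusted p under 0.05. The brightest by mean were the glucose transporter Slc2a1 (-0.66, SE 0.40), the hyaluronan receptor Cd44 (0.38, SE 0.16), adducin Add1 (0.022, SE 0.15) and basigin Bsg (-0.46, SE 0.27), with limma adjusted p from 0.839 to 0.992. All of them are made by many cell types. Rhag, a membrane protein largely restricted to red cells, stayed between 0.493 and 10.2 on every array and was chosen after its values were seen.

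Transcription factors of the erythroid line gave 14 higher and 4 lower of 18, with a median difference of 0.12, and 1 had an unadjusted p under 0.05. The brightest by mean were Bach1, a heme-sensing repressor (0.15, SE 0.16), the Krüppel-like factor Klf3 (0.32, SE 0.40), the stress factor Nfe2l2 (-0.28, SE 0.42) and Myb, a factor of blood progenitors (-0.44, SE 0.76), with adjusted p from 0.927 to 0.958. The 1 gene was Nfe2, a subunit of a globin-activating factor, at signals of 13.6, 19.2, 11.4 and 17.3 (TGFB) and of 0.502, 3.09, 10.1 and 3.16 (wildtype). The groups did not overlap, but the gene is dim and its difference of 0.65 (SE 0.17) had an adjusted p of 0.822. The master regulators Gata1 (9.24 to 37.6) and Klf1 (10.4 to 30.6) were low on every array. Nfe2, Gata1 and Klf1 were chosen after their values were seen.

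Other erythroid differentiation genes gave 11 higher and 12 lower of 23, with a median difference of -0.028. At an unadjusted p under 0.05 were 1 higher and 2 lower. The brightest were the peroxiredoxin Prdx2 (-0.029, SE 0.12), Bpgm, which makes the hemoglobin ligand bisphosphoglycerate (0.28, SE 0.51), Ubac1 (-0.028, SE 0.19) and Fech, described above. Bpgm had signals of 653, 385, 1444 and 1326 in TGFB arrays and 959, 351, 478 and 1360 in wildtype arrays, with TGFB 3, wildtype 4 and TGFB 4 the highest.

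Markers of other blood cells did not move with the groups past the threshold either. Platelet genes gave 9 higher and 4 lower of 13, and the list mean lay between 6.15 and 6.64 in TGFB arrays and between 6.00 and 6.41 in wildtype arrays. Among them the platelet chemokine Ppbp had signals of 193.4, 39.1, 2395 and 2555 in TGFB arrays and of 35.3, 24.9, 22.6 and 1037 in wildtype arrays. Its 3 high arrays, TGFB 3, TGFB 4 and wildtype 4, include the 2 highest arrays of the bright Hbb-y probe sets. They do not include wildtype 1, which was high for Alas2. The difference of Ppbp was 2.43 (SE 1.45, limma adjusted p = 0.894). The other platelet chemokine, Pf4, had a difference of -0.31 (SE 0.37); this pair was named after its values were known. Neutrophil list means ran from 5.43 to 6.11 in TGFB arrays and 4.85 to 6.16 in the others, lymphocyte means from 4.72 to 5.07 and 4.71 to 4.89, and macrophage means from 7.15 to 7.35 and 7.16 to 7.88. Blood endothelial genes gave 5 higher and 11 lower of 16, with list means of 7.24 to 7.43 and 7.18 to 7.83. Of the lymphocyte genes 6 of 12 stayed below 16 on every array. At an unadjusted p under 0.05 were 2 higher and 1 lower of 13 neutrophil genes, and 2 lower of 15 macrophage genes. The endothelial list had 2 lower at that level, and the platelet and lymphocyte lists had none. The part of these cells in the member values was not tested.

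**Figure D4:**
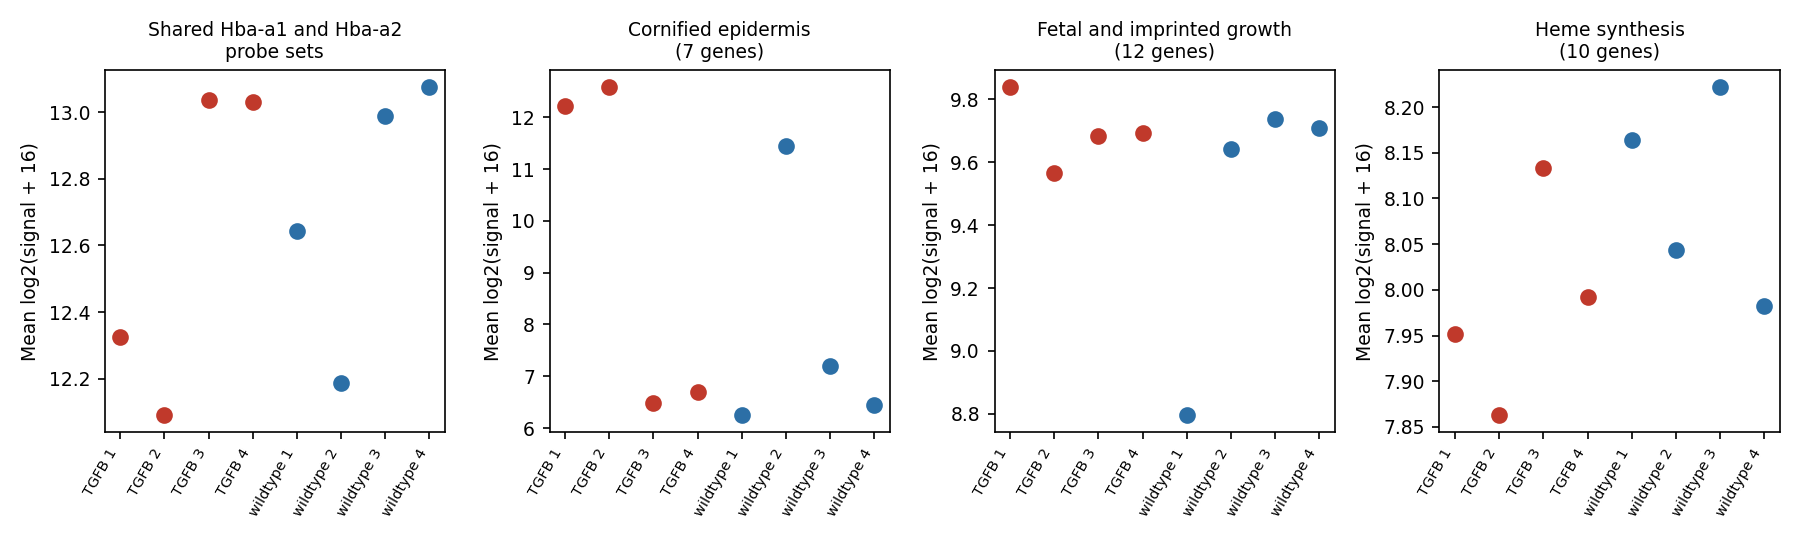
Mean log2(signal + 16) on each array for the 3 probe sets shared by Hba-a1 and Hba-a2, for 7 cornified epidermis genes, for 12 fetal and imprinted growth genes and for 10 heme synthesis genes, each panel on its own axis that does not start at 0. TGFB 1, TGFB 2 and wildtype 2 have the lowest adult alpha globin and the highest cornified epidermis means, and wildtype 1 has the lowest fetal growth mean.

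Leaving out the 3 arrays with high cornified epidermis genes left 2 TGFB and 3 wildtype arrays. TGFB 3 and TGFB 4, the highest for the 2 bright Hbb-y probe sets, were among them. The differences were then 1.53 for Alas2 (SE 0.68), 2.46 (SE 0.83) and 2.41 (SE 0.87) for the 2 bright Hbb-y probe sets, and -0.66 (SE 0.61) for Hbb-bh1 1437990_x_at. All 4 had a limma adjusted p of 0.987. These values are over 1.5 times those of all 8 arrays for Alas2 and Hbb-y.

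**Figure D5:**
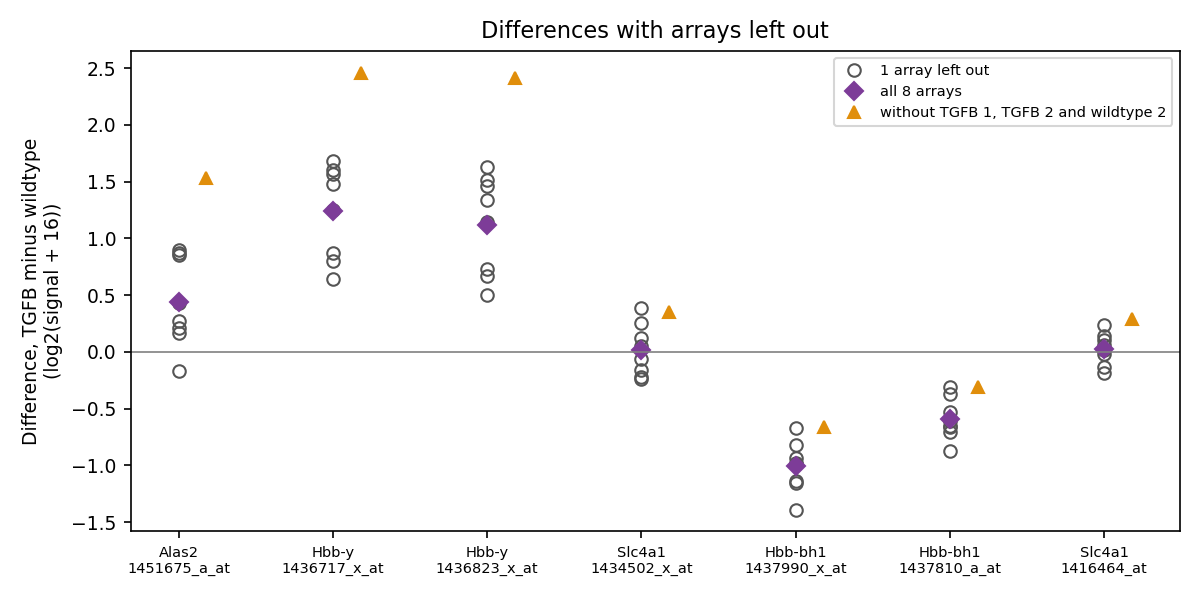
Difference between TGFB and wildtype corneas (log2(signal + 16)) with all 8 arrays (diamonds), with each array left out in turn (circles) and without TGFB 1, TGFB 2 and wildtype 2 (triangles). Alas2 ran from -0.17 to 0.90 over single arrays left out, both plotted Hbb-y probe sets stayed above 0, both plotted Hbb-bh1 probe sets stayed below 0, and both plotted Slc4a1 probe sets lay on both sides of 0.

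The genes whose pattern over the 8 arrays was most like that of a member were sought among 16928 named probe sets with a mean log2(signal + 16) of at least 6, for the 2 members that reached a signal of 100. Likeness is Pearson's r across the 8 arrays, given as a description, since many genes were searched and all share the same arrays. Closest to Alas2 were Scoc (r = 0.960), the linker histone H1f2 (0.957), Ergic2 (0.955), the splicing factor Sf3b1 (0.955) and Lrrc8c (0.953). Closest to Hbb-y 1436717_x_at were the mitochondrial ribosomal protein gene Mrpl33 (0.977), the chaperonin subunit Cct4 (0.967), the developmental transcription factor Sox11 (0.960), Zfand5 (0.959) and Suco (0.955). None of the 10 genes is in the lists of red cell genes used here. The members themselves, the adult globin probe sets shared by several genes, and dim genes such as Gata1, Klf1 and Rhag could not appear in this search. The absence of red cell genes was therefore partly fixed beforehand. Sox11 had signals of 166.2, 106.9, 340.3 and 410.3 in TGFB arrays and 80.2, 178.3, 218.2 and 203.6 in wildtype arrays, so it shared with Hbb-y the high values in TGFB 3 and TGFB 4 and the lowest in wildtype 1.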

How the data were processed

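The table the authors deposited holds 1 intensity per probe set and array for 45101 probe sets and 8 arrays. Which tool and scaling made these intensity values is not given in the sources used here. A 2% trimmed mean of 150 came out on every array, so no further normalization was applied. No pair of arrays held identical values. The 64 control probe sets were left out. A platform annotation of 2016 gave 1 symbol to 34945 probe sets, several to 932 and none to 9160; 34741 were matched by Entrez ID to RefSeq (GRCm38.p6), which gave current symbols.

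Values were taken as log2(signal + 16). Every one of 45037 probe sets was fitted in R 4.3.3 with lmFit and eBayes of limma 3.58.1 (total degrees of freedom 9.21), and p-values were adjusted by Benjamini-Hochberg over all of them, with a threshold of 0.05. A difference is the TGFB mean less the wildtype mean, its SE is the moderated one, and ± gives the SD over 4 arrays. The number of arrays limits the precision. For gene lists the probe set with the highest mean stood for its gene. The rule named all members, up to 4 brightest genes of each erythroid list, and the 5 genes most like each member reaching a signal of 100; others are marked as chosen later, and genes of marker lists are given as ranges or examples. Members, lists and tests were chosen with earlier results of these data known. The alternatives were other offsets, normalizations, filters, probe set choices and variance models, and arrays left out.

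The fit was tested on simulated data with the means and spreads of the 45037 probe sets and 200 changed ones. It recovered 41.2% (2-fold), 87.8% (4-fold) and 94.5% (8-fold) of them, with 4.98% false calls. Noise was drawn for each probe set on its own, so shifts shared by many genes of an array were left out. The folds are of signal + 16, so they are larger changes in the signal of dim probe sets. As averages over all probe sets, these shares do not carry over to Alas2 (SE 0.74) or the bright Hbb-y probe sets (SE 0.77 and 0.81). Promoter windows are RefSeq sequences of GRCm38.p6.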

Additional observations from a re-analysis of the deposited data

Results flagged for a closer look

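In 28 groups of 4 arrays (14 probe sets in 2 groups), 3 single values lay apart from the other 3 of their group, where chance flags about 1 group in 20. All are dim. Hba-x 1448716_at stood at 16.7 in wildtype 4 and at 0.951 to 2.13 in the rest of its group. Slc4a1 1431743_a_at had 7.28 in TGFB 4, against 0.610 to 0.797 in the other TGFB arrays. Epb42 1417337_at had 0.796 in wildtype 2, against 5.10 to 5.54 in the other wildtype arrays.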

How the results depend on the processing

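Over 18 other settings 0 members were called, with a smallest adjusted p of 0.225 for Hbb-bh1 1437990_x_at without wildtype 4. The count of called probe sets was 0 in all settings except without wildtype 4, where 2 probe sets of the carboxylesterase Ces1d passed, so it ran from 0 to 2 over single arrays left out. Unadjusted counts of members ran from 0 to 3. The sign held in all settings run for 7 probe sets: 2 of Hbb-y, 2 of Hbb-bh1, Hba-a1, Hba-x and Epb42 1417338_at. It turned for 7 others in 20 of 237 comparisons. Over single arrays left out Alas2 ran from -0.17 to 0.90, Slc4a1 1416464_at from -0.19 to 0.24, Slc4a1 1434502_x_at from -0.24 to 0.39, Epb42 1417337_at from -0.024 to 0.14, Hbb-y 1450621_a_at from -0.085 to 0.18 and Hbb-bh1 1450736_a_at from -0.039 to 0.0079. Median centring gave -0.0040 for Hbb-y 1450621_a_at, -0.0043 for Slc4a1 1416464_at and -0.013 for Slc4a1 1434502_x_at. Without TGFB 1, TGFB 2 and wildtype 2, Hbb-bh1 1450736_a_at gave 0.012 and Slc4a1 1431743_a_at 0.0051. The causes were not tested. With an offset of 1 the brighter Hbb-y differences were 2.07 and 1.98. No paired analysis was possible because the labels give the groups no shared replicate numbers. With the filter on dim probe sets 6 members were tested, and with 1 probe set per gene 7.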

Other observations

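Myb and Igf2bp1, a pair singled out here after its values were known, had the same 2 highest arrays as the brighter Hbb-bh1 probe sets. Myb, a factor of blood progenitors, had signals of 704.6 in wildtype 2 and 922.2 in wildtype 3, against 81.7 to 442.6 on the other 6 arrays. Igf2bp1, an RNA-binding protein of fetal tissue, had 209.7 in wildtype 2 and 492.7 in wildtype 3, against 17.9 to 110.5. The probe sets of Myb (1421317_x_at) and Igf2bp1 (1459825_x_at) carry the ending x_at, as does Hbb-bh1 1437990_x_at. Whether other transcripts reach them was not tested. For Myb and Igf2bp1 the limma results were as follows. Their differences between the groups were -0.44 (SE 0.76) and -0.22 (SE 0.80), with limma adjusted p of 0.958 and 0.983. Myoglobin (Mb), the globin of muscle, was not part of the red cell lists and had signals of 205.7, 70.8, 631.9 and 350.5 in TGFB arrays and 2781, 850.8, 750.0 and 527.0 in wildtype arrays. Its difference was -1.95 (SE 0.66, limma adjusted p = 0.837). All 12 skeletal muscle genes also had the lower mean in TGFB corneas, with a median difference of -0.17 and none at an unadjusted p under 0.05. Their list means lay between 9.71 and 10.65 (TGFB) or 9.80 and 11.50 (wildtype). Both Mb and the muscle mean were highest in wildtype 1. The part of carried-over muscle in Mb was not tested.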
